A study of Callithrix jacchus with 71 samples.

Results

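Of 65 marmoset induced neural stem cell-like cells (iNSLCs) sequenced one by one, 24 held at least 1 read of POU5F1 and 41 held none. The gene encodes OCT4, a POU transcription factor at the centre of the pluripotency network. The iNSLCs were E01F A-2 cells at passage 1, made from dorsal skin fibroblasts of an embryonic common marmoset by electroporation of the EP-A episomal vectors, and they carry 1 source label, so they were taken as 1 culture. The 71 cells of the series also include 4 No.40 ESCs and 1 E01F A-2-2 iPSC, called the 5 PSC (pluripotent stem cell) cells below, and 1 E01F fibroblast. Each cell was sorted into a well and sequenced by RamDA-seq, which copies RNA along the whole transcript. Cells of 1 culture are not replicates, so no test between cells with and without POU5F1 reads was made, and every difference below describes these cells alone.

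OCT4 works with SOX2 on shared DNA elements, and in most differentiated lineages, the neural lineage included, its gene is silent. The EP-A set carries the human factors LIN28, L-MYC, KLF4, SOX2 and OCT4 beside other sequences. Episomal vectors replicate outside the chromosomes and are lost from dividing cells over time. The human coding sequences resemble the marmoset genes, so reads of POU5F1, SOX2, KLF4, MYCL and LIN28A in an iNSLC can stem from either a vector or a marmoset transcript, and the count table does not separate these sources. In iNSLC clones at later passages, the paper's qPCR found endogenous SOX2 but no endogenous OCT4 or KLF4. It also found OCT4, KLF4 and LIN28 expressed from the vectors. For early-passage bulk iNSLCs of an adult animal it reports only exogenous OCT4, without showing the data. The source of the reads in the single cells was not tested. No sequences are shown, since no sequence table or genome was used here.

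The share of iNSLCs with POU5F1 reads was 36.9% (exact 95% interval 25.3 to 49.8%, which covers counting error only). The labels number the iNSLCs from 25 to 96, and cells numbered 56 or below differ in profile from those numbered 57 or above. The boundary was set on earlier results of these data, and no plate or run is named for it. POU5F1 reads were found in 7 of 27 cells of the lower range (25.9%, 11.1 to 46.3%) and in 17 of 38 cells of the upper range (44.7%, 28.6 to 61.7%). These intervals overlap. Every comparison below was therefore repeated within each range.

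The cells were chosen by their POU5F1 value, in the authors' normalized counts (a cell's reads divided by a factor of that cell), so the POU5F1 values here describe the choice and are no result. POU5F1 had its lowest value among the 24 cells at 1.25, its median at 6.31 and its highest at 117 (mean 21.0 ± 30.0, SD over cells). The 10 highest cells were cells 93, 82, 25, 55, 76, 84, 45, 29, 61 and 47, with values of 117, 92.2, 50.8, 45.3, 41.4, 31.8, 29.6, 16.3, 14.5 and 13.6. They held 91.4% of the 499 POU5F1 reads of all iNSLCs, and 5 of them lie in each range of cell number. The other 14 cells were below 10, and 12 of those 14 lie in the upper range. Just inside the rule stand 5 cells with a single read each (cells 57, 63, 68, 74 and 89), and just outside it stand the 41 cells at 0.

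A cell at 0 is not shown to lack the transcript. A count of 0 allows up to 3 reads, which is worth 1.32 to 8.51 normalized counts in the 41 cells (median 3.71), and 11 of the 24 cells with reads were above every one of these limits. The other 13 had values that some cell at 0 could hold unseen. The reads on genes were 131531 to 695241 per cell with POU5F1 reads (median 288023) and 82268 to 642253 per cell without (median 249829), and the detected genes had medians of 11351 and 10610. When 58 cells were thinned to 131531 reads each, 21.7 of them were expected to keep a POU5F1 read (37.4%, against 41.4% unthinned). The 7 shallower cells were left out, and all 7 lacked POU5F1 reads. Spearman's rho between POU5F1 and the number of detected genes was 0.33 over the 65 cells, which share a culture and differ in depth, and rho with the reads on genes was 0.09. The part of depth in the results below was not tested beyond this thinning.

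For scale, POU5F1 was 53.8, 10.2, 205 and 34.2 in ESCs 10, 11, 12 and 14 and 155 in the iPSC, and it was 0 in the fibroblast. The 10 highest iNSLCs were at or above the lowest of these PSC cells, and 5 were at or above the second lowest.

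**Figure D1:**
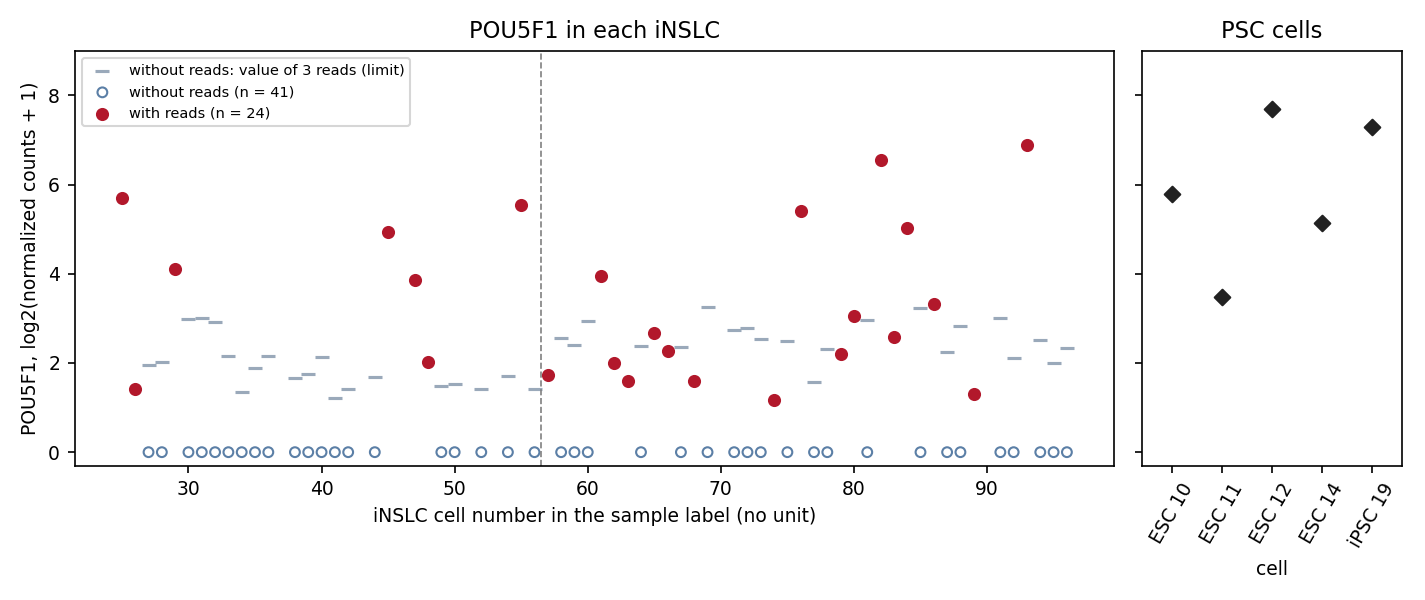
POU5F1 in each iNSLC by its cell number (left; log2 of normalized counts plus 1) and in the 5 PSC cells (right). Filled points are the 24 cells with reads, open points the 41 without, dashes the value that 3 reads would have in a cell without, and the vertical line stands between cells 56 and 57. Of the 24 filled points, 11 lie above every dash, and the 10 highest overlap the PSC cells.

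Among LIN28A, SOX2, KLF4 and MYCL, LIN28A was the only gene higher in cells with POU5F1 reads in both ranges. It encodes an RNA-binding protein that blocks maturation of let-7 microRNAs. LIN28A was 12.2 to 251 (median 64.5) in the 24 cells and 6.08 to 188 (median 49.5) in the 41 cells, with a read in every one of them. The ranges overlap almost fully. The means of 86.3 and 56.7 give a log2 ratio of 0.60 on the log2(mean + 1) scale, used for all log2 ratios here, with 0.67 in the lower and 0.54 in the upper range of cell number and 0.47 to 0.68 when each cell was left out in turn. In PSC cells LIN28A was 58.7 to 461, and it was 0 in the fibroblast.

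MYCL, which encodes the MYC relative L-MYC, did not follow POU5F1 in 1 direction. It had reads in 17 of 24 cells with POU5F1 reads (70.8%, 48.9 to 87.4%) and in 21 of 41 without (51.2%, 35.1 to 67.1%), with medians of 4.14 and 1.57. After thinning the shares were 65.3% and 48.5%. The log2 ratio was 0.55, but -0.80 in the lower and 0.71 in the upper range, and 0.19 without cell 80. By level of POU5F1, MYCL had a mean of 5.81 at 0, 14.2 in the 14 cells below 10 and 1.62 in the 10 cells of at least 10, where its highest value was 7.23 and 5 of the 10 cells had no read. The ratio of those 10 cells to cells without POU5F1 reads was -1.24 in the lower range (5 against 20 cells) and -1.48 in the upper range (5 against 21). MYCL was at 0 in 4 of the 5 PSC cells.

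SOX2, a partner of OCT4 that is also a core factor of neural stem cells, was found in all 65 iNSLCs. It was 21.7 to 246 (median 92.5) with POU5F1 reads and 9.45 to 222 (median 82.4) without. The log2 ratio was 0.08, with -0.39 and 0.01 in the 2 ranges. In the 10 cells of at least 10 its mean was 73.8, against 96.0 in cells without reads, a log2 ratio of -0.45 in the lower and -0.32 in the upper range.

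KLF4, a zinc-finger factor of the original reprogramming set, had reads in 5 of 24 cells and 11 of 41 cells, with means of 0.90 and 2.01 and a median of 0 in both. The thinned shares were 17.3% and 18.5%. Its log2 ratio of -0.66 was -1.52 in the lower and -0.18 in the upper range, and -0.35 without cell 33. In PSC cells KLF4 was 5.34 to 129. The rho of POU5F1 with LIN28A was 0.24 over the 65 cells (0.39 and 0.14 in the 2 ranges) and 0.49 over the 24 cells with reads. With SOX2, KLF4 and MYCL it was -0.01, -0.06 and 0.07. The level of none of these 4 vector factors separated the cells with POU5F1 reads from the rest.

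**Figure D2:**
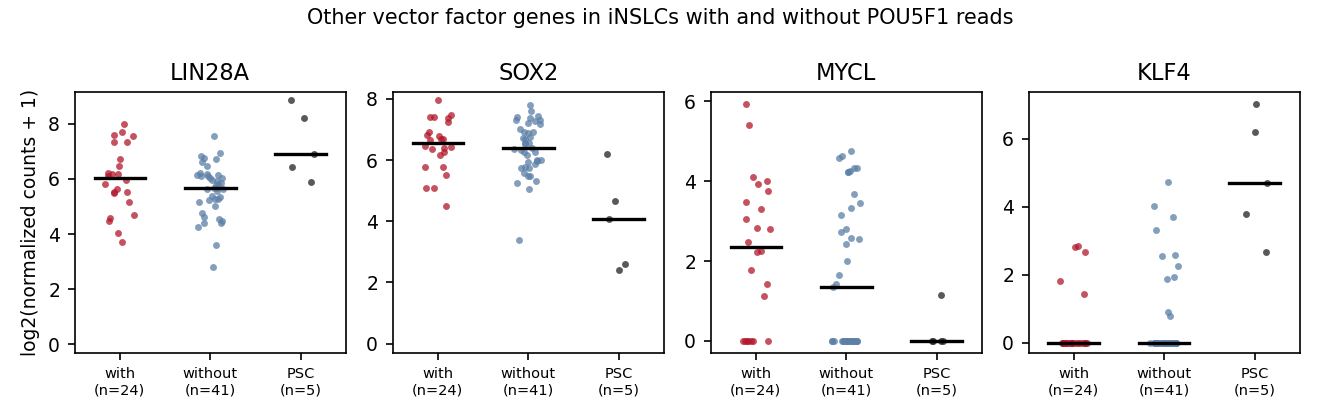
LIN28A, SOX2, MYCL and KLF4 in the 24 iNSLCs with and the 41 without POU5F1 reads and in the 5 PSC cells (log2 of normalized counts plus 1, 1 point per cell, the line is the median). The groups of iNSLCs overlap for every gene, and MYCL is at 0 in 4 of the 5 PSC cells.

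Across 13602 genes with a mean of at least 1 over the 65 iNSLCs, POU5F1 left aside, 343 (2.52%) were higher with POU5F1 reads by a log2 ratio of at least 1 and 197 (1.45%) lower by as much. The lower range of cell number, with 7 cells against 20, gave 9.11% and 7.96%, and the upper range gave 2.58% and 1.4%. A ratio of at least 1 in both ranges was seen for 131 genes (0.963%) and of at most -1 in both for 48 genes (0.353%). The median log2 ratio of all genes was 0.06, and 56.4% of genes were above 0 and 43.6% below (53.1% and 46.9% in the lower range, 53.9% and 46.1% in the upper range).

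Pluripotency genes beyond the vectors were higher for the few members that iNSLCs express. Of 26 listed genes in the table, 6 had a mean of at least 1, and all 6 were higher with POU5F1 reads, with a median log2 ratio of 0.56 (1.05 in the lower and 0.37 in the upper range). Of the 6, 5 were higher in both ranges. Passing the filter on the mean was decided over all 65 cells, and 6 genes are too few to read against the background of 56.4%.

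DNMT3B, a DNA methyltransferase that sets new methylation in pluripotent cells, had the largest ratio of the 6. It was 0 to 77.8 (median 33.2) with POU5F1 reads and 0 to 46.8 (median 15.2) without, and 23 of 24 and 36 of 41 cells had a read. The log2 ratio was 0.94, with 1.42 and 0.67 in the 2 ranges. In PSC cells it was 235 to 1201, above every iNSLC.

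LIN28B, the paralogue of LIN28A and no part of the vectors, was 0 to 44.3 (median 12.4) with and 0 to 37.6 (median 5.57) without POU5F1 reads, a log2 ratio of 0.64 (1.02 and 0.47). TRIM71, an RNA-binding factor of early embryos and a let-7 target, was 63.2 to 352 (median 127) with and 1.16 to 347 (median 109) without, a ratio of 0.53 (1.08 and 0.14). SALL4, a zinc-finger partner of OCT4 chosen after its values were seen, had means of 71.9 and 47.7 and a ratio of 0.58 (1.11 and 0.27). TERT, the catalytic subunit of telomerase, had reads in 15 of 24 and 26 of 41 cells and a ratio of 0.35, which was 0.07 in the upper range and 0.03 without cell 65.

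These differences were largest in the 10 cells with POU5F1 of at least 10. DNMT3B had means of 17.1 at 0, 24.8 below 10 and 45.9 at or above 10. TRIM71 had 112, 123 and 215, SALL4 had 47.7, 54.3 and 96.6, and LIN28B had 8.07, 10.0 and 17.4. LIN28A had means of 56.7, 67.2 and 113. The medians were 49.5, 45.0 and 80.5 for LIN28A and 109, 98.4 and 186 for TRIM71, so cells below 10 did not stand above cells at 0. The medians of DNMT3B, SALL4 and LIN28B rose at each step. The reads on genes of the 3 classes had medians of 249829, 241780 and 299638. Each of these 5 genes was also higher in the 10 cells than in cells without reads within both ranges of cell number, with log2 ratios of 0.78 to 1.73 in the lower and 0.48 to 1.15 in the upper range.

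Genes that mark established pluripotency were almost absent from both classes. Of the 26 listed genes, 8 had no read in any iNSLC (DPPA3, DPPA5, UTF1, TDGF1, PRDM14, ESRRB, FGF4 and OTX2), and 11 had reads in 1 to 7 cells. TFCP2L1, a factor of naive pluripotency, had reads in 2 of 24 cells with POU5F1 reads and 8 of 41 without. NANOG, the homeodomain factor that acts with OCT4, had 1 read in 1 cell (cell 83, with POU5F1 reads). At least 1 of the 11 rare genes was found in 9 of 24 cells with POU5F1 reads and in 17 of 41 without. The 10 cells highest in POU5F1 held 0 to 2 of them. The number of the 26 genes detected per cell was 4 to 9 with and 3 to 11 without POU5F1 reads, with a median of 6 in both, against 18 to 26 in PSC cells. Thinned to equal depth, the expected numbers were 5.60 and 5.23.

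DPPA4, a chromatin factor of early embryos and germ cells, was the rare gene with the most uneven split. It had 35, 8 and 25 reads in cells 26, 62 and 80 (values 19.5, 12.1 and 30.2), all with low POU5F1 values of 1.67, 3.01 and 7.24, and no read in the 41 cells without POU5F1 reads, where the count of 0 allows a share of up to 7.32%. The mean of the 24 cells was 33.5-fold the value that 3 reads over the 41 cells would give, or 17.9-fold without cell 80. These folds pool reads that all came from cells 26, 62 and 80. They cover counting error of reads only and describe those cells, not the class. In the other direction, TFAP2C had reads in 3 cells without POU5F1 and in none with, and cell 81 held its highest value at 57.0. ZFP42, a marker of pluripotent cells, reached 12.5 in cell 25 and at most 2.37 elsewhere.

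Neural stem cell genes were present in both classes. Of 20 listed genes with a mean of at least 1, 16 were above 0, against 56.4% of all genes, with a median log2 ratio of 0.25. That median was -0.21 in the lower range (9 of 20 above 0) and 0.13 in the upper range (16 of 20), so the direction depended on the range. SOX3, a SOX2 relative of neural progenitors, was 0 to 69.1 (median 16.9) with and 0 to 56.7 (median 9.02) without, a ratio of 0.72 (0.75 and 0.57). HES1, a Notch target that keeps progenitors from differentiating, had a ratio of 0.61 that was -0.85 in the lower and 1.23 in the upper range. FABP7, a lipid-binding protein of radial glia, and DACH1 had ratios of -0.44 and -0.41, below 0 in both ranges. Without cell 75 the DACH1 ratio was -0.15. The summed level of the 22 listed genes had medians of 4176 with and 4052 without POU5F1 reads, against 454 in PSC cells.

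In the 10 cells of at least 10, against cells without reads, 8 of the 20 neural stem cell genes were above 0 and 12 below, with a median of -0.18. Among genes chosen after their values were seen, PAX6 and VIM had means of 17.4 and 1894 in these 10 cells and of 21.1 and 2779 at 0, but of 31.6 and 3375 in the 14 cells below 10. CDH2, NES and SOX1 were higher in the 10 cells, with means of 196, 279 and 23.0 against 132, 240 and 16.4 at 0. In the lower and the upper range, the log2 ratios of the 10 cells to cells at 0 were -0.49 and -0.04 for PAX6. They were -0.33 and -0.72 for VIM, 0.47 and 0.68 for CDH2, 0.29 and 0.19 for NES, and 0.19 and 0.74 for SOX1. POU3F2, the POU factor BRN2 of neural progenitors and neurons, was 1.94 to 100 (mean 56.1) in these 10 cells and 18.9 to 299 (mean 108) in the 41 cells. The POU3F2 ratio of the 10 cells was -0.85 in the lower and -1.03 in the upper range. Over all 24 cells it was -0.38. POU3F4 of the same family had reads in 8 of 24 and 23 of 41 cells and a ratio of -0.77 (-1.22 without cell 86). The POU family list of 8 genes had a median of -0.09, with 4 genes on each side of 0, and 0.18 without cell 81.

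Proneural and neuroblast genes, which act as progenitors become neurons, had a median of -0.13 over 13 genes (-0.67 in the lower and 0.00 in the upper range). Of the 13, 5 were above 0, against 56.4% of all genes. The list rests on few cells, with a median of -0.58 without cell 25 and 0.14 without cell 27. NHLH1, a factor of newborn neurons, had reads in 4 of 41 cells without POU5F1 and in none of the 24 with (at most 12.5% of cells by a count of 0). INSM1 had reads in 2 and 3 cells and a ratio of -1.78, which was -0.97 without cell 27. DLL3, a Notch ligand, had a ratio of 1.89 that came from cell 25, where it was 405, and it was -0.50 without that cell. DLL1, a Notch ligand found in all 65 cells, had a ratio of 1.45 with medians of 25.6 and 28.8, so the sign turned when medians were used, and it was 0.69 without cell 57.

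Neural crest genes were mostly lower, but 10 genes are too few to read against the 43.6% of all genes below 0. Of the 10 genes, 7 were below 0 in both ranges, a share not given here for all genes. The median was -0.32 (-0.87 and -0.21), or -0.13 without cell 40. NGFR, a receptor of crest and glial precursors, had reads in 0 of 24 and 6 of 41 cells, and TFAP2B, a crest transcription factor, in 0 of 24 and 3 of 41. ETS1 was higher at 1.72, with reads in 3 and 1 cells. The summed level of the 12 listed genes was 4.85 to 287 (median 105) with and 23.6 to 524 (median 131) without POU5F1 reads. Glial, epithelial and fibroblast lists had 4, 4 and 6 genes with a mean of at least 1 and medians of 0.20, 0.31 and 0.02. With every cell scaled to equal totals the list median of fibroblast genes was -0.06. The glial median was -0.03 without cell 68 and the epithelial 0.20 without cell 89. The mesoderm, endoderm and trophoblast list of 4 genes, PDGFRB among them, had a median of 0.34, or 1.25 and -0.11 in the 2 ranges and 0.65 without cell 75. Among them KRT19 had reads in 2 of 24 and 3 of 41 cells, and COL1A2, a fibrillar collagen of fibroblasts, had a ratio of -0.70 with values up to 461 and 1069, or -0.39 without cell 50.

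**Figure D3:**
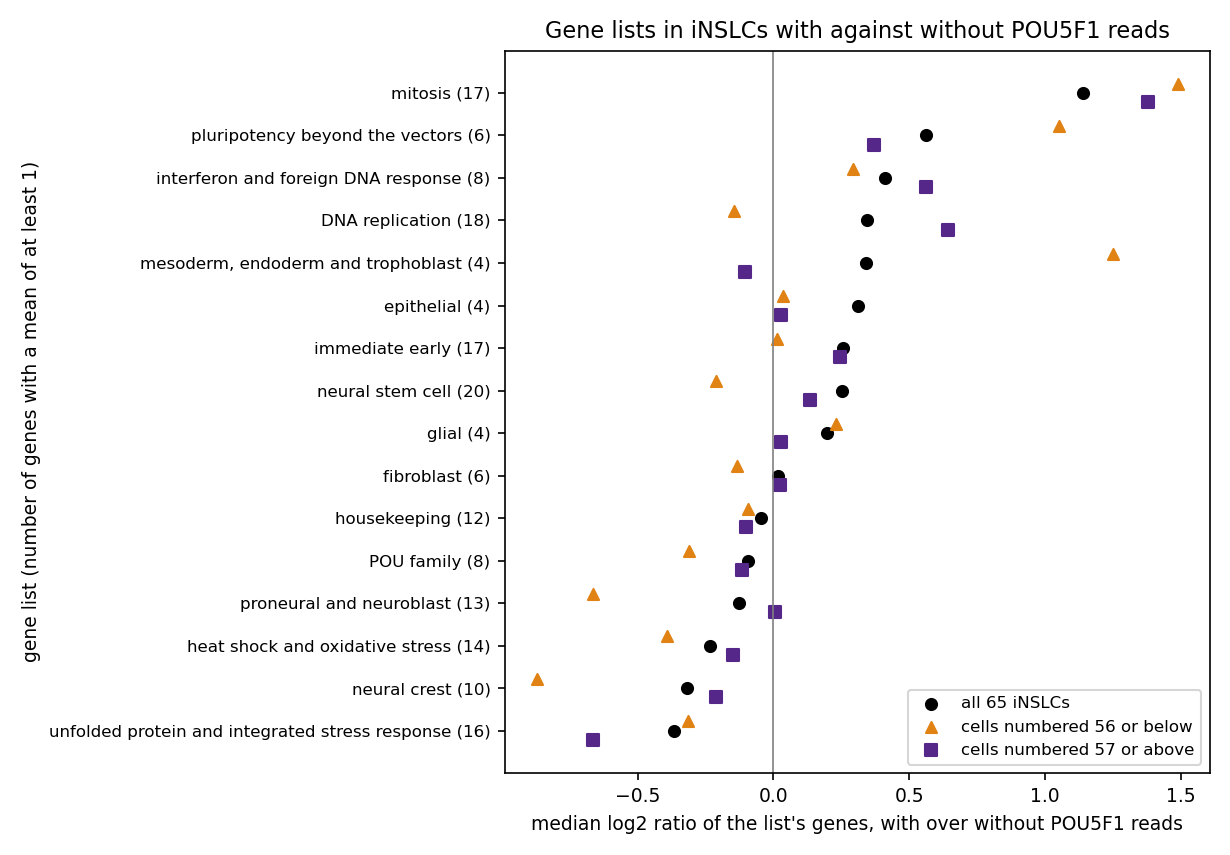
Median log2 ratio of each gene list, iNSLCs with against without POU5F1 reads, for all 65 cells and within both ranges of cell number (in brackets, how many of its genes had a mean of at least 1). For all 65 cells the mitosis list stands farthest right at 1.14 and the unfolded protein and integrated stress response list farthest left at -0.36, while in the lower range the neural crest list is farthest left at -0.87, and the neural stem cell and DNA replication lists lie on both sides of 0 by range.

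Stress genes did not follow POU5F1 reads upward. The unfolded protein and integrated stress response slows translation and raises chaperones when proteins misfold. It had 13 of 16 genes below 0, against 43.6% of all genes, and a median of -0.36 (-0.31 and -0.66). Of the 16, 9 were below 0 in both ranges, a share not given here for all genes. The summed level had close medians of 520 with and 559 without POU5F1 reads. Its means were 569 and 810, and its highest values 1438 and 2935. CHAC1, a glutathione-degrading enzyme induced by ATF4, had reads in 1 of 24 and 10 of 41 cells (thinned shares 3.18% and 21.3%) and a ratio of -2.16. TRIB3, a pseudokinase of the same response, had means of 1.30 and 4.37. SESN2, a stress-induced regulator of mTORC1, went the other way with medians of 77.9 and 50.5 and a ratio of 0.62. Heat shock and oxidative stress genes had 11 of 14 below 0, against 43.6% of all genes, and a median of -0.23 (-0.36 without cell 55). Among them HMOX1, which degrades heme, had reads in 6 of 24 and 18 of 41 cells (thinned shares 18.6% and 34.3%).

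The interferon and foreign DNA response list, the response that cytoplasmic DNA can raise, had 7 of 8 genes above 0 and a median of 0.41 (0.29 and 0.56). Of the 8, 5 were higher in both ranges, and the largest ratio over all iNSLCs was 0.80. Of all genes 56.4% were above 0, and 8 genes are too few to read against that share. Immediate early genes, the first response to growth signals and handling, had 13 of 17 above 0 and a median of 0.26 (0.15 without cell 84). In the lower range the median was 0.01 with 9 of 17 above 0, against 53.1% of all genes. In the upper range it was 0.25 with 12 of 17 above 0, and 7 of 17 were higher in both ranges. FOSB, an AP-1 subunit, was 1.42 (means 32.7 and 11.6) and EGR3 1.49, while ZFP36 was -0.71 (-0.47 without cell 33). The housekeeping list of 12 genes had a median of -0.05, and its lowest member was PGK1, a glycolytic enzyme, at -0.77.

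All 17 mitosis genes with a mean of at least 1 were higher with POU5F1 reads, in both ranges, with a median log2 ratio of 1.14 (1.49 and 1.38) and 10 at or above 1. Of all genes, 56.4% were above 0 and 2.52% at or above 1. In the lower range 12 of the 17 were at or above 1, against 9.11% of all genes. In the upper range 16 were, against 2.58%. AURKB, a kinase of the spindle checkpoint and cytokinesis, had reads in 10 of 24 and 8 of 41 cells and a ratio of 2.55. BUB1, a spindle checkpoint kinase, was 1.78. CCNB1, a mitotic cyclin, was 0.32 and lay between -0.85 and 1.38 as each cell was left out, with the lowest value without cell 47 and the highest without cell 31. The DNA replication list had a median of 0.34 over 18 genes, with 13 above 0 against 56.4% of all genes. The median was -0.15 in the lower and 0.64 in the upper range.

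Over all 65 cells, the size of the mitosis difference rests on a few cells. The summed level of the 17 genes was 8.87 to 4862 (median 120) with and 3.46 to 2393 (median 76.7) without POU5F1 reads, and the highest cells were cell 47 (with), cell 41 (without) and cell 86 (with). Levels of at least 500 were found in 6 of 24 cells (25.0%, 9.77 to 46.7%) and 6 of 41 (14.6%, 5.57 to 29.2%), and the intervals overlap. In the lower range, where cell 47 lies, both classes had reads of a median of 9 of the 17 genes. In the upper range, which does not hold cell 47, the medians were 13 genes with and 7 without POU5F1 reads. Without cell 47 the list median over all ranges was 0.59, 15 of 17 genes were above 0 and 2 were at or above 1. Without the 3 highest cells, an alternative added after the data were seen, it was 0.56, again with 15 of 17 above 0. Spearman's rho between POU5F1 and the summed level was 0.10 over the 65 cells.

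**Figure D4:**
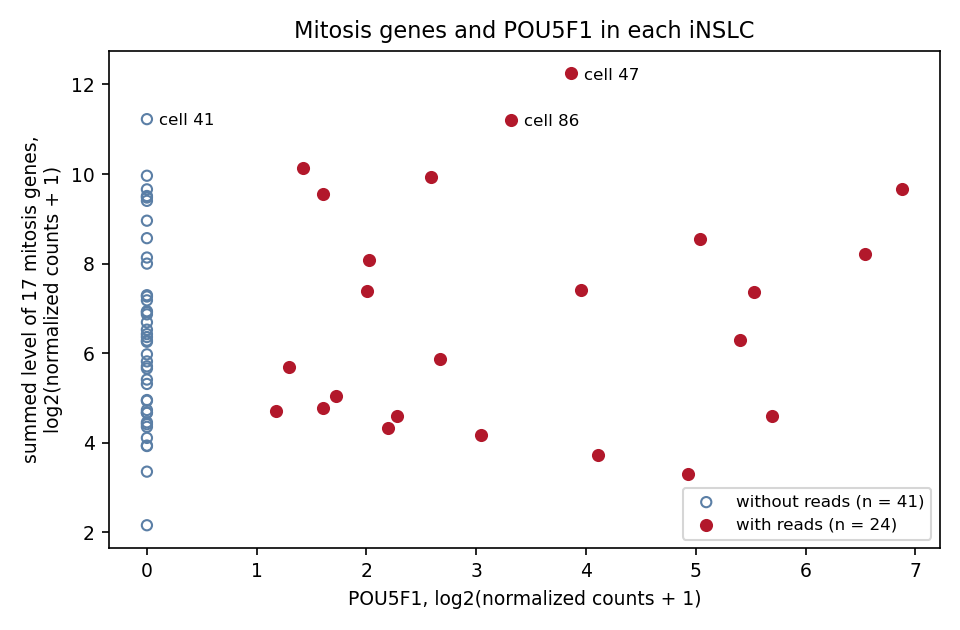
Summed level of 17 mitosis genes against POU5F1 in each of the 65 iNSLCs (both axes log2 of normalized counts plus 1). Filled points have POU5F1 reads, open points have none, and cells 47, 41 and 86 are the 3 highest, at 4862, 2393 and 2369.

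Among named genes with reads in at least 50% of the cells with POU5F1 reads, a mean of at least 10 there and the same sign in both ranges, those with the largest upward ratios, besides POU5F1 itself, included PDGFRB, SFRP1 and ONECUT2, which are not genes of the cell cycle. PDGFRB, a receptor tyrosine kinase for platelet-derived growth factor, had reads in 19 of 24 cells with POU5F1 reads (79.2%, 57.8 to 92.9%) and 8 of 41 without (19.5%, 8.82 to 34.9%). It was 0 to 63.3 (median 7.73) in the first class and 0 to 43.5 (median 0) in the second. Most cells of the second class were at 0, although the ranges overlap. The log2 ratio was 1.91, with 3.65 in the lower and 1.21 in the upper range, and 1.69 to 2.31 as each cell was left out. After thinning the shares were 69.6% and 18.4%. All 10 cells with POU5F1 of at least 10 had PDGFRB reads (mean 23.5, against 8.16 in the 14 cells below 10 and 3.15 in the 41 at 0). In the lower range no cell without POU5F1 reads reached the lowest of these cells (1.45), and in the upper range 5 of 21 did (1.84). In the cells without POU5F1 reads, 3 reads are worth a median of 2.32 in the lower and 4.70 in the upper range. A PDGFRB value of 0 there therefore does not show a level below 1.45 or 1.84. PSC cells had 10.2 to 42.7 and the fibroblast 224.

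SFRP1, a secreted inhibitor of WNT signalling, was 0 to 87.0 (median 7.91) with and 0 to 25.9 (median 0) without POU5F1 reads, with reads in 14 of 24 and 12 of 41 cells. The log2 ratio was 2.42 (3.20 and 1.93), and the thinned shares were 57.4% and 21.2%. The means by POU5F1 level were 2.26, 5.39 and 31.8, and 9 of the 10 highest cells had a read. In PSC cells SFRP1 was 23.5 to 214.

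ONECUT2, a homeodomain factor of neural and endodermal lineages, was 0 to 510 (median 13.9) with and 0 to 274 (median 0) without, with reads in 17 of 24 and 15 of 41 cells. The log2 ratio was 2.35 in both the pooled cells and the lower range and 2.96 in the upper range, and the pooled ratio was 1.88 without cell 25 and 3.31 without cell 40. All 10 cells of at least 10 had reads, with a mean of 145 and a median of 109, against 12.5 and 2.69 in the 14 cells below 10 and 12.5 and 0 in the 41 at 0. Without cell 40 the mean of the cells at 0 was 5.94. PSC cells did not share it, with 0.54 in ESC 12 and 0 in the other 4. The highest ONECUT2 mean and median were those of the cells with the most POU5F1.

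The other upward genes under the same limits were NEIL3, a DNA glycosylase active in S phase, at 2.43, TROAP at 2.15, ECT2 at 2.10, FAM83D at 2.09, STIL at 2.00 and KIF20A at 1.92. ECT2 and KIF20A act in cytokinesis, FAM83D at the spindle, and STIL in centriole duplication. All 6 were smaller without cell 47. Without it, ECT2 was 0.73, TROAP 0.96, KIF20A 1.12 and FAM83D 1.14, while STIL was 1.55 and NEIL3 1.97. Without the 3 cells highest in mitosis genes, PDGFRB, SFRP1 and ONECUT2 were 1.99, 2.49 and 2.42.

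**Figure D5:**
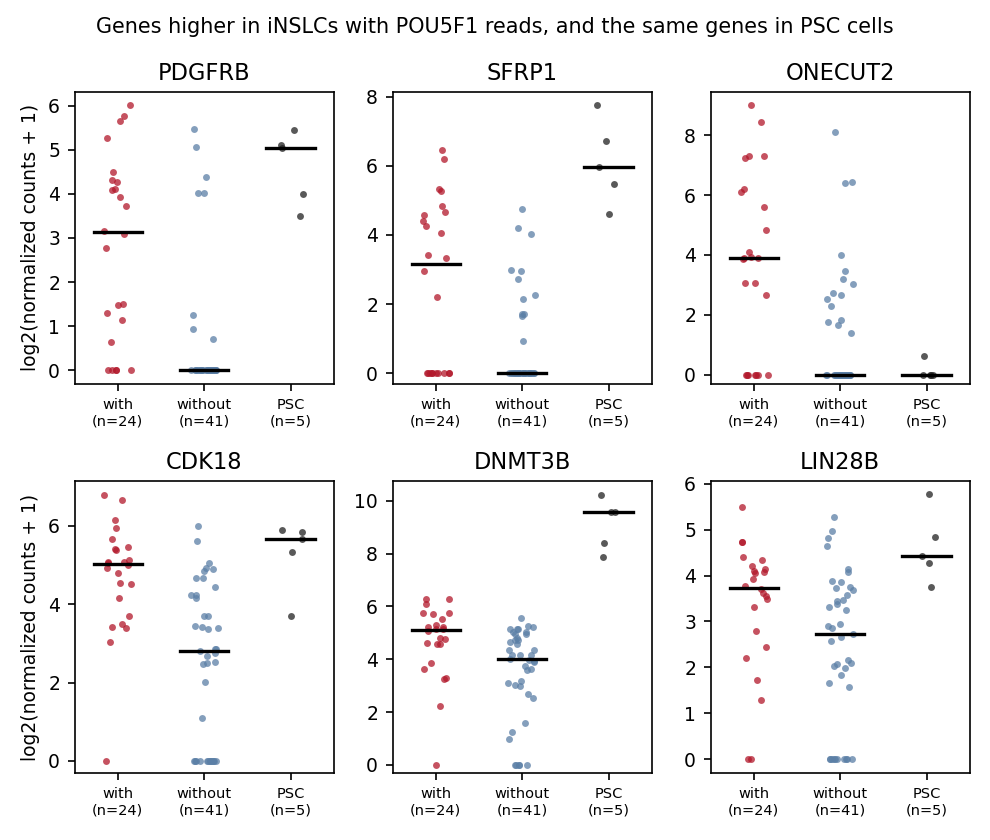
PDGFRB, SFRP1, ONECUT2, CDK18, DNMT3B and LIN28B in the 24 iNSLCs with and the 41 without POU5F1 reads and in the 5 PSC cells (log2 of normalized counts plus 1, 1 point per cell, the line is the median). The medians of PDGFRB, SFRP1 and ONECUT2 are 0 without POU5F1 reads, and ONECUT2 is at or near 0 in PSC cells.

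Among named genes with reads in at least 50% of the cells of the higher class, a mean of at least 10 there and the same sign in both ranges, those lowest with POU5F1 reads were AIDA (-1.65), KIF5A (-1.50), INSIG2 (-1.49), SC5D (-1.41), SPON1 (-1.40), CNTN2 (-1.39), PHLDA1 (-1.36), HILPDA (-1.35), ADGRD2 (-1.32) and SERINC3 (-1.29). KIF5A, a kinesin of neuronal axons, was 0 to 37.6 (median 4.33) with and 0 to 161 (median 19.5) without POU5F1 reads, in 17 of 24 and 35 of 41 cells, and its ratio was -3.64 in the lower and -1.03 in the upper range. INSIG2 and SC5D belong to sterol metabolism, as a brake on SREBP processing and as a desaturase of cholesterol synthesis. Their medians were 4.56 against 7.10 and 4.93 against 11.0. The SC5D ratio was -2.45 in the lower and -0.12 in the upper range. CNTN2, an axonal adhesion protein, rested on cell 81 and AIDA on cell 33, without which their ratios were -0.73 and -0.74.

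The genes whose levels followed POU5F1 most closely over the 65 cells, among 5817 with a mean of at least 10, were GABBR1 (rho 0.53), PTCH1 (0.52), ONECUT2 (0.52), CDK18 (0.51) and CEMIP2 (0.50). Over all 5817 genes rho lay between -0.44 and 0.53 with a median of 0.05. CDK18, a cyclin-dependent kinase family member, was 0 to 110 (median 31.7) with and 0 to 62.1 (median 5.94) without POU5F1 reads, with reads in 23 of 24 and 28 of 41 cells (thinned 95.8% and 70.8%). It was already higher in the 14 cells below 10, at a mean of 37.0 against 32.4 in the 10 highest and 11.2 at 0. Within the 24 cells its rho with POU5F1 was -0.12.

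GABBR1, a subunit of the GABA-B receptor, was 79.9 to 129 in the 10 highest cells and 0 to 122 in the cells without reads, 12 of which reached the lowest of the 10. PTCH1, the hedgehog receptor and itself a hedgehog target, had means of 114 at 0, 161 below 10 and 215 at or above 10. CEMIP2, a hyaluronan-degrading surface protein, had 55.6, 67.2 and 160, and it was the gene of the 5 with the highest rho within the 24 cells, at 0.73. Without cell 25 its ratio was 0.70 instead of 0.92. PTCH1 was 15.0 to 62.3 in PSC cells, below the 10 highest iNSLCs.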

How the data were processed

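RNA of 71 single cells was measured by RamDA-seq. The signal values are normalized counts that the authors deposited, each cell's reads divided by 1 factor. Seurat 3.0.0, featureCounts 1.5.1, STAR 2.6.0c and Trimmomatic stand in the submitters' processing notes without roles. Neither a genome build nor an annotation is named, being not given in the sources used here. Values were whole multiples of 1 read within 0.02 (largest deviation 0.0117). The row without a gene name, at most 0.449% of a cell, was left out.

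Cells were split by a POU5F1 value above 0 and summarised with pandas 2.3.3, numpy 2.4.6 and scipy 1.17.1 (Python 3.11.15), and plotted with matplotlib 3.10.9. Log2 ratios compare means after a pseudocount of 1 for genes with a mean of at least 1. Share intervals are Clopper-Pearson, and a count of 0 allows 3 counts. Intervals and floors cover counting error only. The ratio step was tested on simulated data.

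Members, lists (303 symbols, 29 without a row) and alternatives were chosen with earlier results of these data known. Named genes are the vector factors, the 10 highest and 10 lowest genes by log2 ratio (mean of at least 10 in the higher class, reads in at least 50% of its cells, the same sign in both ranges), the 5 with the highest rho with POU5F1 (mean of at least 10), the 2 highest and 2 lowest members of each list, and listed pluripotency genes with reads in at most 7 iNSLCs. Symbols starting with LOC were passed over. Alternatives were another pseudocount, medians over cells, other filters, scaling to equal totals, each range of cell number, leaving out the 10% of cells with fewest genes detected, POU5F1 limits of 2 reads or 10 normalized counts, and each cell left out in turn. Leaving out the 3 cells highest in mitosis genes was added after the data were seen. Some results for single genes and for 1 list are not reported here.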

Additional observations from a re-analysis of the deposited data

Results flagged for a closer look

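Of 9 measures examined over the 4 ESCs, 2 had a cell far from the other 3 by the gap between it and its nearest neighbour, which chance alone gives in about 1 of 20 groups. LIN28A was 460.6 in ESC 12 and at most 117 in the other ESCs. MYCL was 1.21 in ESC 10, from 3 reads, and 0 in the other ESCs. With those tied at 0, any value above 0 is flagged, so the rate of 1 of 20 does not hold for MYCL. A count of 0 allows up to 3 reads, which is worth more than 1.21 in each of the other ESCs. ESC 10 is therefore not shown to differ in MYCL.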

How the results depend on the processing

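No paired analysis was possible because the results come from no test and each group is 1 culture. With 1 culture, the intervals describe cells and reads, not cultures, and depth limits what a value of 0 shows. A value was counted as moved past the smaller of the SD over cells within a class and a 1.5-fold change. The counts of 343 higher and 197 lower genes became 36 and 8 with a pseudocount of 10, 69 and 36 with a mean of at least 10, 1239 and 1083 in cells numbered 56 or below, and 734 and 607 with POU5F1 of at least 10 against 0. With medians over cells 1350 genes were higher. The share of iNSLCs with POU5F1 was 15.4% at a value of at least 10. The KLF4 ratio was 0 with medians over cells and -1.52 in cells numbered 56 or below. The MYCL ratio was -0.80 in those cells and -1.38 with POU5F1 of at least 10. List medians moved for the mesoderm, endoderm and trophoblast list in cells numbered 56 or below (1.25) and, with POU5F1 of at least 10, for the glial (-0.71) and neural crest (-1.51) lists. Among genes with a ratio past 1 in size, the sign turned for DLL1 with medians over cells (-0.17), for DLL3 with medians over cells (-1.34), in cells numbered 57 or above (-0.11) and when single cells were left out (-0.50 to 1.99, the lowest without cell 25), and for ETS1 with POU5F1 of at least 10 (-0.14). The other 302 checks of main values stayed within the limit, and of the single-gene checks 1071 did and 159 moved. Of these 159, 16 changed sign, in MYCL, KRT8, HES1, BAG3, GCLM, ISG15, GATA3, CSPG4, PDGFRA, IFI6 and CCNB1, whose ratios were below 1 in size. Scaling to equal totals moved the median over genes, counting those whose mean was at least 10, from 0.06 to -0.02. The causes were not tested.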
